A study of Sus scrofa with 25 samples.

Results

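Transcripts of 9 genes that carry calcium across the plasma membrane and into mitochondria, or control its entry, were followed in pig muscle: STIM1, STIM2, ORAI1, MCU, MICU2, SLC8A1, SLC8A3, ATP2B1 and ATP2B4. They were chosen by name, as the rows whose Ensembl pig identifier carries these symbols, and they make up 9 of the 25879 identifiers analysed. Each symbol matched 1 identifier: ENSSSCG00000014792 for STIM1, ENSSSCG00000008762 for STIM2, ENSSSCG00000034510 for ORAI1, ENSSSCG00000010290 for MCU, ENSSSCG00000024667 for MICU2, ENSSSCG00000036418 for SLC8A1, ENSSSCG00000002315 for SLC8A3, ENSSSCG00000027898 for ATP2B1 and ENSSSCG00000015273 for ATP2B4.

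The series held 25 muscle libraries, 1 from each of 25 pigs bred from Polish Large White sows and Landrace boars. From day 85 of life, and for 90 days, the pigs ate feeds matched in protein and energy. The feeds held vitamin D3 at 0 IU/kg (control, 8 pigs), 5000 IU/kg (D5000, 8 pigs) or 10000 IU/kg (D10000, 9 pigs), and litter mates were spread over the diets. All pigs lived singly on straw bedding with free water, and replicates are called by the animal numbers of the labels. The labels do not say which muscle was sampled, which litter a pig came from or its sex, and give no level of vitamin D in blood or tissue.

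When the endoplasmic or sarcoplasmic reticulum loses calcium, STIM proteins in its membrane open ORAI channels in the plasma membrane, a route called store-operated calcium entry. In skeletal muscle this route helps to refill the stores over repeated contractions. Mitochondria take up calcium through the uniporter, whose pore is MCU and whose gate is set by MICU proteins. Sodium-calcium exchangers of the SLC8A family and ATP-driven pumps of the ATP2B family return calcium to the outside of the cell.

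Libraries were made with a kit that reads the 3' end of mRNA (QuantSeq), so levels are given in CPM, counts scaled to the library's total of gene counts, without division by length. A comparison of levels between genes also depends on how well each 3' end is annotated. The libraries held 3310507 to 15177976 gene counts. Reads assigned to genes were 24.9% to 70.6% of all reads that were assigned, outside genes, ambiguous or with several positions. Percentages of assigned reads are given on this basis throughout. In bulk muscle, fewer cells of a type and less RNA per cell cannot be told apart. Fast-twitch markers summed to 16369 to 71067 CPM in 24 libraries and to 2398 CPM in D10000 replicate 27, where adipocyte markers summed to 10884 CPM against 52.9 to 290 CPM in the other libraries. Transcripts of liver were present in every library, with ALB at 934 to 18158 CPM. SERPINA1, on the same list of 9, averaged only 0.160 CPM (0 to 2.04 CPM). Under 45% of reads were assigned in D5000 replicates 11 and 18 and in D10000 replicates 2 and 7. These 4 libraries and D10000 replicate 27, which had 53.5% assigned, were marked as standing apart after the data were seen, and they are called the 5 libraries that stand apart.

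All 9 genes passed the filter on low counts, together with the rest of the 10992 genes tested. The calcium pump ATP2B1 had the highest level, at a mean of 74.9 CPM over the 25 libraries, and was first of the 9 in 22 of 25 libraries. MCU, STIM1 and MICU2 followed at mean levels of 30.4, 27.9 and 27.0 CPM. ORAI1 averaged 18.7 CPM and ATP2B4 16.7 CPM. The exchangers and the second sensor were lowest, with SLC8A3 at a mean of 7.38 CPM, SLC8A1 at 3.84 CPM and STIM2 at 3.56 CPM. STIM2 was last of the 9 in 14 of 25 libraries.

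Neighbours in this order were compared within libraries by a two-sided sign-flip permutation test of the mean log2(CPM + 0.5) difference, adjusted by the Benjamini-Hochberg method over the 8 comparisons. ATP2B1 stood above MCU in 23 of 25 libraries (adjusted permutation p = 8.0e-05, from the smallest p that 100000 permutations can give, 1e-05). MCU was above STIM1 in 15 of 25 libraries and STIM1 above MICU2 in 13 of 25, and neither mean difference was called (adjusted permutation p = 0.903 for both). The mean log2 difference of MCU to STIM1 was -0.024, opposite to the order of their mean CPM. MICU2 lay above ORAI1 in 21 of 25 libraries (adjusted permutation p = 0.00056). The mean difference between ORAI1 and ATP2B4 was not called (adjusted permutation p = 0.289), while ATP2B4 exceeded SLC8A3 in 21 of 25 libraries (adjusted permutation p = 0.00012). SLC8A3 exceeded SLC8A1 in 19 of 25 libraries (adjusted permutation p = 0.0263), and the mean difference between SLC8A1 and STIM2 was not called (adjusted permutation p = 0.108).

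**Figure D1:**
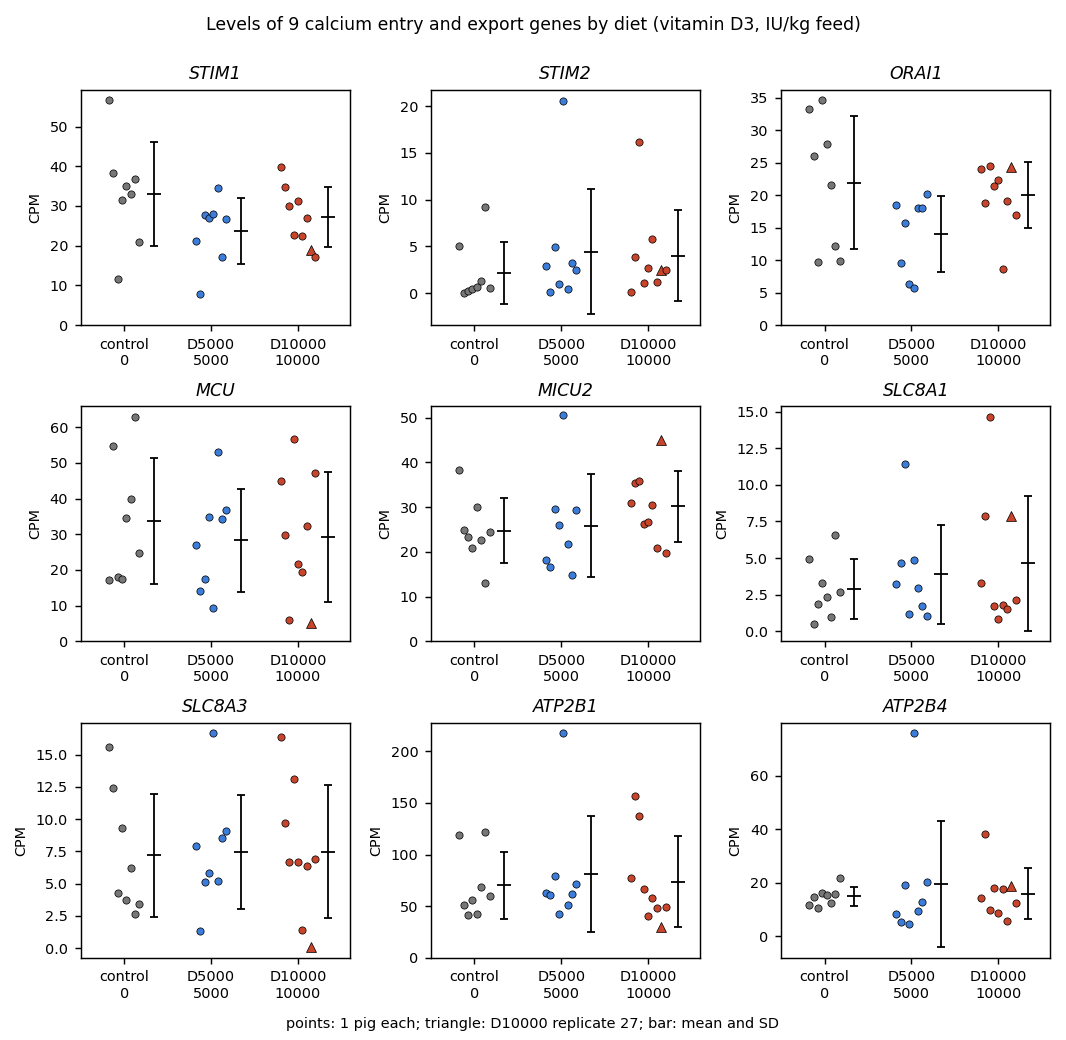
Level of each gene in CPM (vertical axis) in the control, D5000 and D10000 diets. Points are pigs, bars are the mean and SD of a diet, and the triangle is D10000 replicate 27. The diets overlap for every gene, and single high D5000 or D10000 libraries set the top of the STIM2, SLC8A1, ATP2B1 and ATP2B4 ranges.

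STIM1, the main calcium sensor of the muscle reticulum, had 11.6, 34.01 and 56.8 CPM as the lowest, median and highest level in control pigs. In D5000 pigs these values were 7.83, 26.8 and 34.4 CPM, and in D10000 pigs 17.3, 26.9 and 39.9 CPM. The diets overlapped, with 1 of 8 D5000 libraries and 2 of 9 D10000 libraries above the control median. STIM1 averaged 23.7 ± 8.21 CPM in D5000 pigs (SD, n = 8) and 32.97 ± 13.2 CPM in control pigs (SD, n = 8), and the fitted log2 fold change was -0.49 ± 0.28 (SE; 95% interval -1.06 to 0.08). The D10000 pigs averaged 27.1 ± 7.53 CPM (SD, n = 9), with a log2 fold change of -0.40 ± 0.27 against control (interval -0.95 to 0.15) and of -0.25 ± 0.28 without the 5 libraries that stand apart. Both doses lay on the same side of the shared control pigs, and D10000 against D5000 gave 0.09 ± 0.27 (interval -0.46 to 0.64).

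STIM2, a sensor that reacts to smaller falls in store calcium, was close to the floor of detection in many libraries. Its counts ran from 0 to 92 reads per library with a median of 18. The lowest, median and highest levels were 0, 0.618 and 9.21 CPM in control, 0.167, 2.67 and 20.6 CPM in D5000, and 0.123, 2.52 and 16.2 CPM in D10000. Control replicate 9 had 0 reads, which at its depth allows up to 0.380 CPM. The highest levels were in D5000 replicate 18 and D10000 replicate 7, which are 2 of the libraries with few assigned reads, and in control replicate 23. Levels above the control median were found in 6 of 8 D5000 and 8 of 9 D10000 libraries. The log2 fold change was 1.00 ± 0.83 in D5000 against control (interval -0.69 to 2.68), 0.89 ± 0.81 in D10000 against control (interval -0.76 to 2.53) and -0.11 ± 0.79 in D10000 against D5000. Without the 5 libraries that stand apart, D5000 against control was 0.12 ± 0.87 and D10000 against control 0.38 ± 0.87.

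As a share of the reads of both sensors, which needs no scaling between libraries, STIM2 took 0% to 42.4% with a median of 7.91%. The median share was 2.36% in control, 10.2% in D5000 and 10.2% in D10000 pigs, and STIM1 held the larger part in every library. D5000 replicate 18 had the highest share, with 89 STIM2 reads and 121 STIM1 reads (42.4%, 95% exact Clopper-Pearson interval 35.6% to 49.4%). The shares of the diets overlapped, with highest values of 20.1% in control, 42.4% in D5000 and 34.98% in D10000 pigs. Such intervals cover counting error only.

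ORAI1, the pore of the store-operated channel, had 9.70, 23.8 and 34.7 CPM as its lowest, median and highest level in control pigs. It had 5.78, 16.8 and 20.1 CPM in D5000 pigs and 8.68, 21.4 and 24.5 CPM in D10000 pigs. None of the 8 D5000 libraries reached the control median, but 3 control libraries lay within the D5000 range. ORAI1 averaged 14.0 ± 5.84 CPM in D5000 pigs (SD, n = 8) against 21.9 ± 10.3 CPM in control pigs (SD, n = 8). The log2 fold change of -0.70 ± 0.35 (interval -1.41 to 0.00) had an unadjusted p of 0.0513 in the edgeR quasi-likelihood test. The D10000 pigs averaged 20.0 ± 5.03 CPM (SD, n = 9), with a log2 fold change of -0.33 ± 0.33 against control (interval -1.01 to 0.35) and 0.37 ± 0.34 against D5000 (interval -0.31 to 1.06). Without the 5 libraries that stand apart, D5000 against control was -0.51 ± 0.34. Without control replicate 14 alone, D5000 against control was -0.48 and D10000 against control -0.10. The reads of ORAI1 were 17.1% to 56.3% of those of ORAI1 and STIM1 together, and the median of this share was 40.1% in control, 39.6% in D5000 and 41.7% in D10000 pigs.

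MCU, the pore of the mitochondrial uniporter, had 17.1, 29.7 and 62.9 CPM as its lowest, median and highest level in control pigs. The values were 9.24, 30.7 and 53.2 CPM in D5000 and 5.06, 29.9 and 56.8 CPM in D10000 pigs. The medians of the 3 diets lay within about 1 CPM of each other, and the lowest level of all was that of D10000 replicate 27, followed by 5.99 CPM in D10000 replicate 7. Fitted log2 fold changes were -0.15 ± 0.45 in D5000 against control (interval -1.07 to 0.76), -0.22 ± 0.44 in D10000 against control (interval -1.12 to 0.67) and -0.07 ± 0.44 in D10000 against D5000. Without the 5 libraries that stand apart the signs turned, at 0.13 ± 0.32 in D5000 against control, 0.19 ± 0.32 in D10000 against control and 0.06 ± 0.34 in D10000 against D5000.

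MICU2, a calcium-binding gatekeeper that keeps the uniporter shut at resting calcium, varied least between pigs, with a spread of 33.4% of its mean within diets. Its lowest, median and highest levels were 13.1, 23.9 and 38.3 CPM in control, 14.8, 23.9 and 50.6 CPM in D5000 and 19.8, 30.5 and 45.04 CPM in D10000 pigs. The 2 highest libraries were D5000 replicate 18 and D10000 replicate 27, and the diets overlapped. The log2 fold changes were -0.09 ± 0.24 in D5000 against control (interval -0.58 to 0.40), 0.05 ± 0.23 in D10000 against control (interval -0.42 to 0.53) and 0.14 ± 0.23 in D10000 against D5000. Reads of MCU made up 10.1% to 82.8% of the reads of MCU and MICU2 together, with median shares of 52.1% in control, 56.4% in D5000 and 45.8% in D10000 pigs. The lowest shares of MCU, 10.1%, 14.3% and 15.4%, were in D10000 replicates 27 and 7 and in D5000 replicate 18, and the highest was in control replicate 23 with 403 MCU reads and 84 MICU2 reads (82.8%, exact interval 79.1% to 86.0%).

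SLC8A1 encodes the sodium-calcium exchanger best known from heart muscle. Its lowest, median and highest levels were 0.506, 2.50 and 6.56 CPM in control, 1.02, 3.12 and 11.4 CPM in D5000 and 0.865, 2.13 and 14.6 CPM in D10000 pigs. The diets overlapped, and the libraries above 7 CPM were D5000 replicate 11 and D10000 replicates 2, 7 and 27, all among the 5 that stand apart. In the fit the log2 fold change was 0.33 ± 0.58 in D5000 against control (interval -0.84 to 1.504) and 0.39 ± 0.56 in D10000 against control (interval -0.75 to 1.53). Without those 5 libraries the value was -0.06 ± 0.58 in D5000 and -0.52 ± 0.58 in D10000 against control.

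SLC8A3 encodes the exchanger that is found in skeletal muscle and brain. It had 2.65, 5.22 and 15.6 CPM as the lowest, median and highest level in control, 1.33, 6.87 and 16.6 CPM in D5000 and 0.0778, 6.69 and 16.4 CPM in D10000 pigs. The lowest value came from a single read in D10000 replicate 27, the library with few fast-twitch transcripts, and the diets overlapped. Log2 fold changes were -0.05 ± 0.55 in D5000 against control (interval -1.18 to 1.07), -0.07 ± 0.54 in D10000 against control (interval -1.16 to 1.02) and -0.02 ± 0.54 in D10000 against D5000. Without the 5 libraries that stand apart the D10000 values turned to 0.24 against control and 0.31 against D5000, and without D10000 replicate 27 alone to 0.12 against control and 0.16 against D5000. Within a library, SLC8A1 took a median of 26.1% of the reads of both exchangers. It held the larger part in 6 of 25 libraries, and D10000 replicate 27 had 101 SLC8A1 reads beside 1 SLC8A3 read (99.0%, exact interval 94.7% to 99.98%).

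ATP2B1, the plasma membrane calcium pump found in most tissues, had 41.1, 57.8 and 122 CPM as its lowest, median and highest level in control pigs. The values were 42.1, 62.5 and 218 CPM in D5000 and 29.3, 58.2 and 157 CPM in D10000 pigs. The diets overlapped over most of their ranges, with D5000 replicate 18 and D10000 replicates 2 and 7 at the top and D10000 replicate 27 at the bottom. The log2 fold change was 0.10 ± 0.27 in D5000 against control (interval -0.45 to 0.66), -0.10 ± 0.26 in D10000 against control (interval -0.64 to 0.43) and -0.21 ± 0.26 in D10000 against D5000. The D5000 value against control was -0.087 without the 5 libraries that stand apart and -0.085 without D5000 replicate 18 alone. The D10000 value was -0.23 against control without the 5 libraries, and it was 0.025 without D10000 replicate 27 alone and -0.22 without D10000 replicate 2 alone.

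ATP2B4, a second plasma membrane calcium pump, had 10.5, 15.1 and 21.9 CPM as its lowest, median and highest level in control, 4.68, 11.1 and 75.8 CPM in D5000 and 5.60, 14.2 and 38.4 CPM in D10000 pigs. Control libraries were narrowly spread, with an SD of 3.56 CPM (n = 8), against 23.5 CPM in D5000 (n = 8), where D5000 replicate 18 lay far above the rest. The log2 fold change was 0.04 ± 0.37 in D5000 against control (interval -0.72 to 0.80), -0.17 ± 0.36 in D10000 against control (interval -0.91 to 0.56) and -0.21 ± 0.36 in D10000 against D5000. The D5000 value against control was -0.53 ± 0.31 without the 5 libraries that stand apart and -0.44 without D5000 replicate 18 alone. ATP2B4 gave 6.71% to 39.1% of the reads of both pumps, and its median share was 21.3% in control, 16.3% in D5000 and 19.6% in D10000 pigs.

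Over the 9 genes, none was called in any of the 3 contrasts by the edgeR quasi-likelihood test with Benjamini-Hochberg adjustment over the 10992 genes tested, where 0% of all genes were called at 0.05. The smallest adjusted p of any gene was 0.999 in D5000 against control, 1.00 in D10000 against control and 0.999 in D10000 against D5000. At an unadjusted p under 0.05, 0 of the 9 genes passed, beside 371 genes (3.38% of all tested) in D5000 against control, 263 (2.39%) in D10000 against control and 323 (2.94%) in D10000 against D5000. DESeq2 and limma voom also called 0 genes. The D5000 contrast of ORAI1 was the nearest, with an unadjusted p of 0.0477 in DESeq2 and of under 0.05 in 7 of the 25 fits that left out 1 library, where the smallest adjusted p was 0.901. ORAI1 also moved with the share of assigned reads, as given below. With that share as a covariate in edgeR, 0 of the 9 genes had an unadjusted p under 0.05 in D5000 against control. The median log2 fold change of the 9 genes was -0.05 in D5000 against control, -0.10 in D10000 against control and -0.02 in D10000 against D5000, against 0.01, 0.07 and 0.04 for all genes tested. The contrasts share their control or D5000 pigs, so their values are not independent. The intervals reached from a log2 value of -1.73 to 2.68, both for STIM2, and were narrowest for MICU2. Changes within them remain possible. They are not adjusted for the 10992 genes tested and are not a limit of detection.

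**Figure D2:**
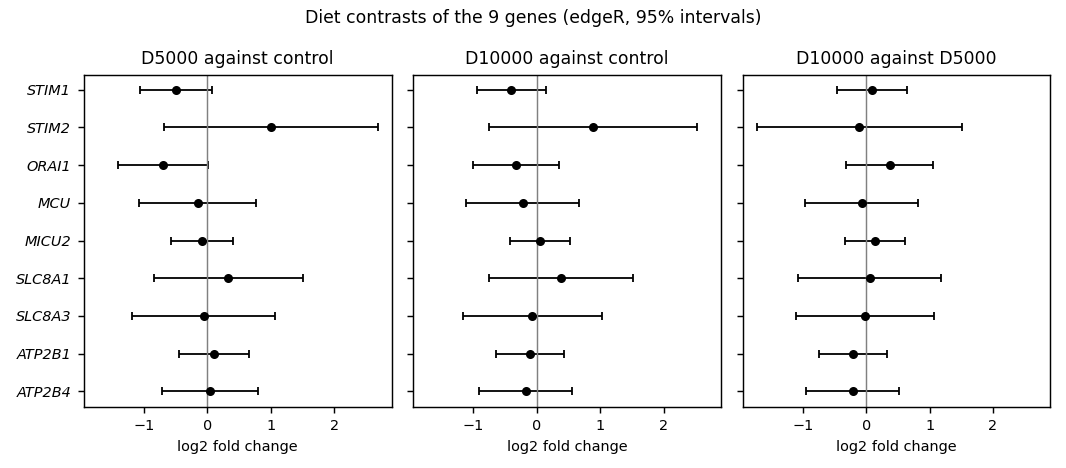
Log2 fold changes of the 9 genes (horizontal axis) with 95% intervals from the edgeR fit, in 3 panels for D5000 against control, D10000 against control and D10000 against D5000. All 27 intervals reach across 0, that of ORAI1 in D5000 only just, and those of STIM2 are widest.

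Other genes of the pathway were read from 3 lists. Of 11 partners of STIM and ORAI, 5 were tested, and 0 were called in any contrast. The 3 with the highest mean level were SARAF, a brake on store-operated entry, at 41.6 CPM, the channel gene ORAI3 at 11.7 CPM and SLC35G1 at 10.5 CPM. ORAI3 had a log2 fold change of 0.42 ± 0.38 in D5000 and 0.54 ± 0.37 in D10000 against control. SARAF had 0.13 ± 0.24 in D5000 and -0.01 ± 0.23 in D10000 against control. The median over the 5 was 0.13 in D5000 and 0.10 in D10000 against control. Of 17 mitochondrial partners, 14 were tested and 0 called, with medians of -0.04 in D5000 and -0.14 in D10000 against control. The outer membrane channels VDAC1 and VDAC3 averaged 639 and 177 CPM and GHITM, an inner membrane protein, 98.9 CPM. VDAC1 had a log2 fold change of -0.37 ± 0.40 in D5000 and -0.35 ± 0.39 in D10000 against control. The uniporter subunit gene SMDT1 averaged 59.0 CPM, above the mean levels of MCU and MICU2. Of 9 genes listed with the export proteins, 6 were tested and 0 called, with medians of -0.23 in D5000 and -0.06 in D10000 against control. The calmodulin genes CALM2 and CALM3, whose protein activates the pumps, averaged 403 and 232 CPM. CALM2 had 0.58 ± 0.35 in D5000 and 0.29 ± 0.34 in D10000 against control.

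The spread between pigs of the same diet differed among the 9 genes. Relative to the mean, the within-diet SD ran from 33.4% for MICU2 and 35.3% for STIM1 to 92.3% for SLC8A1 and 144% for STIM2. STIM2 and SLC8A1 were also the genes with the largest counting error, at 19.2% and 18.5% of the mean.

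Whether the genes varied together between pigs was read from log2 CPM centred within diets, over 25 libraries and 36 pairs. Of the 36 pairs 1 passed after Benjamini-Hochberg adjustment of the permutation p-values, STIM1 with SLC8A3. Pearson r was 0.58 (permutation p = 0.0011, adjusted permutation p = 0.0403) and Spearman rho 0.52 (permutation p = 0.0107, adjusted permutation p = 0.128). The r was 0.54 within control, 0.62 within D5000 and 0.73 within D10000 pigs. It was 0.49 without the 2 libraries farthest from the median of STIM1, 0.54 without D10000 replicate 27 and 0.57 without the 5 libraries that stand apart. STIM1 and ORAI1 had r = 0.47 (permutation p = 0.0348, adjusted permutation p = 0.186) and rho = 0.62 (permutation p = 0.0023, adjusted permutation p = 0.0466). MCU and SLC8A1 ran against each other, with r = -0.58 (permutation p = 0.0034, adjusted permutation p = 0.0617) and rho = -0.60 (permutation p = 0.0026, adjusted permutation p = 0.0466). That r was -0.40 without the 2 libraries farthest from the median of MCU, D10000 replicates 7 and 27, and -0.31 without the 5 libraries that stand apart. SLC8A3 and ATP2B1 had r = 0.53 (permutation p = 0.0328, adjusted permutation p = 0.186) and 0.09 without D10000 replicates 21 and 27, so this relation rested on those libraries. MCU and its gatekeeper MICU2 had r = -0.24 (permutation p = 0.151). These values are for TMM scaling. On CPM from plain library sizes r was -0.54 for MCU and MICU2 (permutation p = 0.0038) and 0.64 for STIM2 and ATP2B1 (permutation p = 0.00096), which had 0.45 with TMM. It was then 0.51 for STIM1 and SLC8A3 (permutation p = 0.0038), 0.41 for STIM1 and ORAI1 and -0.55 for MCU and SLC8A1. The plain-size p-values were not adjusted over the 36 pairs, so the count of 1 pair holds for TMM only.

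**Figure D3:**
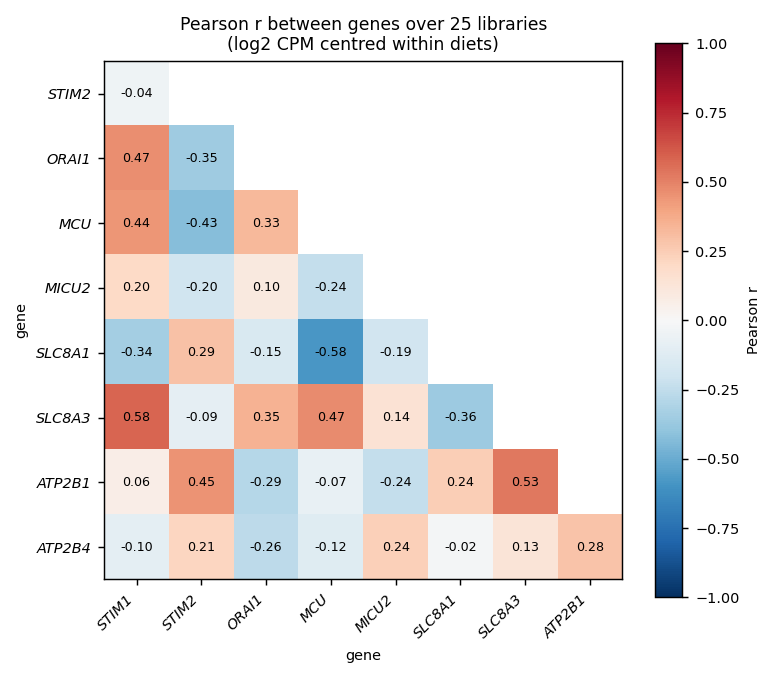
Pearson r for each of the 36 pairs of the 9 genes over 25 libraries, on log2 CPM centred within diets; red squares are positive and blue squares negative on a scale from -1 to 1. With TMM scaling, as drawn, STIM1 with SLC8A3 (0.58) and MCU with SLC8A1 (-0.58) are the strongest.

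The share of reads assigned to genes, a measure of the library, differed between pigs and was set against each gene. The mean share was 58.4% in control, 51.8% in D5000 and 53.5% in D10000 pigs, and the medians were 56.8%, 55.3% and 57.8%. Of 18 relations, 9 with this share and 9 with an index of fast over slow fibre markers, 1 passed the adjustment. ORAI1 was higher in libraries with more assigned reads, with r = 0.71 (permutation p = 0.0002, adjusted permutation p = 0.0031) and rho = 0.72 (permutation p = 0.0001, adjusted permutation p = 0.0014). The r was 0.77 within control, 0.83 within D5000 and 0.62 within D10000 pigs. It was 0.62 without the 2 libraries with the lowest shares and 0.75 without the 5 libraries that stand apart, but 0.36 (permutation p = 0.0703) on CPM from plain library sizes. MCU had r = 0.60 with the share (permutation p = 0.0056, adjusted permutation p = 0.0504), or 0.37 without the 5 libraries. None of the 9 relations with the fibre index passed.

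**Figure D4:**
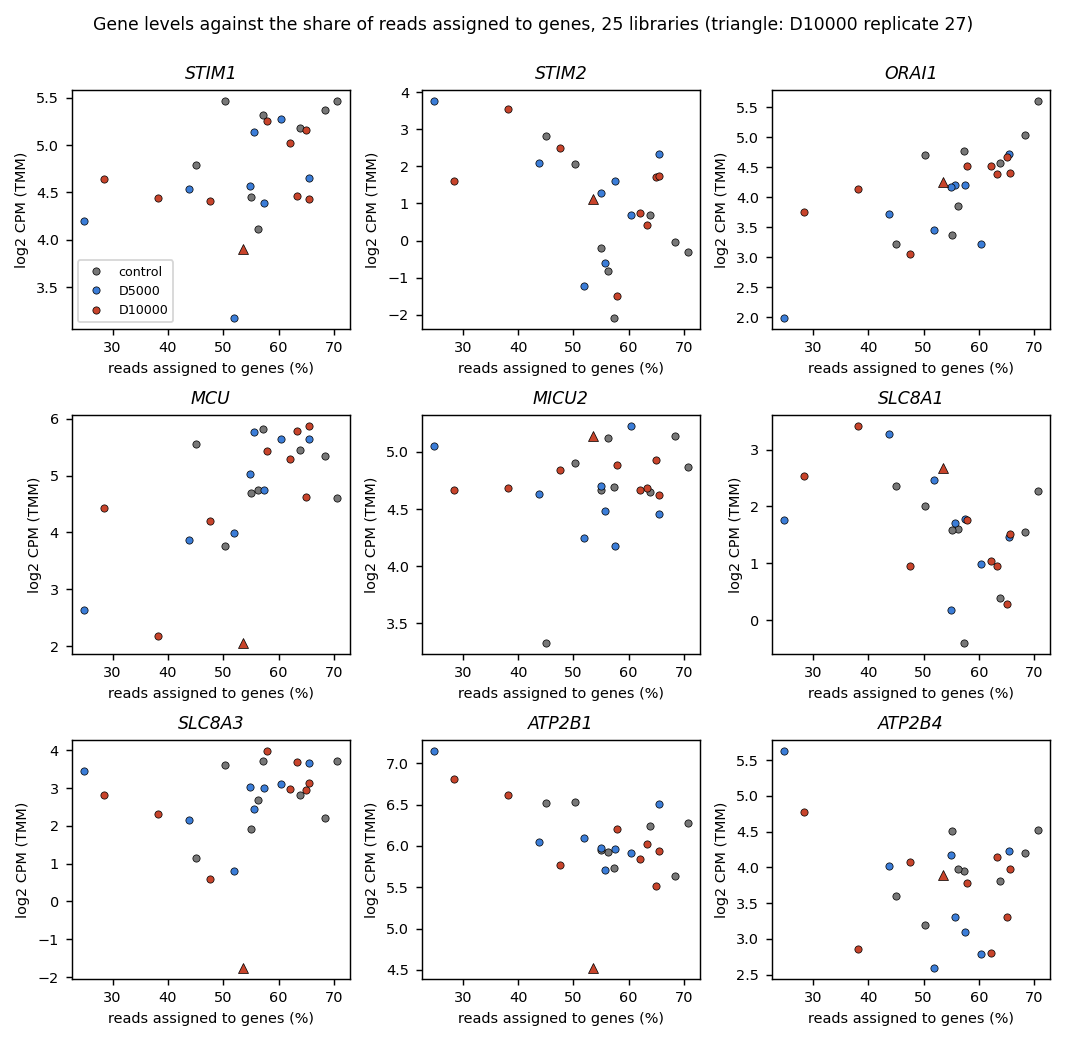
Log2 CPM with TMM scaling (vertical axis) against the percentage of reads assigned to genes (horizontal axis) for the 9 genes in 25 libraries, coloured by diet. ORAI1 climbs with the share in all 3 diets. Centred within diets, r with the share was -0.47 for STIM2, -0.54 for ATP2B1 and 0.60 for MCU over 25 libraries. Without the 5 libraries that stand apart these were -0.18, -0.17 and 0.37, and within control pigs -0.52, -0.45 and 0.11.

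A slope per 10 percentage points of assigned reads was then fitted for every gene in edgeR beside diet, a fit added after the data were seen. Of the 9 genes 4 were called at an adjusted p under 0.05, against 28.8% of the 10992 genes tested, 13.9% upward and 14.9% downward. ORAI1 had a slope of 0.42 ± 0.10 (edgeR adjusted p = 0.0027) and MCU 0.50 ± 0.15 (edgeR adjusted p = 0.0132), both upward. ATP2B1 had -0.23 ± 0.07 (edgeR adjusted p = 0.0180) and STIM2 -0.68 ± 0.24 (edgeR adjusted p = 0.0287), both downward. The slopes of STIM1 at 0.15 ± 0.09, MICU2 at 0.02 ± 0.08, SLC8A3 at 0.16 ± 0.18, SLC8A1 at -0.43 ± 0.20 and ATP2B4 at -0.25 ± 0.11 were not called. Without the 5 libraries that stand apart, ORAI1 alone of the 9 was called, at 0.69 ± 0.17 (edgeR adjusted p = 0.0086), beside 10.4% of all genes.

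The slopes depended on the scaling of the libraries. With plain library sizes in place of TMM the median slope of all genes was -0.22 in place of 0.03. The slope of ORAI1 was then 0.18 (edgeR adjusted p = 0.262) and that of MCU 0.27 (edgeR adjusted p = 0.190), neither of them called, and STIM1, MICU2 and SLC8A3 turned negative. Of the 9 genes 5 were then called, all downward, beside 32.9% of all genes. Relative to the median of all genes the slopes were nearly the same under both scalings, at 0.39 for ORAI1 under each, 0.47 for MCU with TMM and 0.48 with plain sizes, -0.26 and -0.27 for ATP2B1, and -0.72 and -0.74 for STIM2. A change of scaling shifts the slopes of all genes by about the same amount. This likeness therefore follows from the calculation and lends the slopes no support. ATP2B1 and STIM2 were called downward with TMM, with RLE factors, under which 28.5% of all genes were called, and with plain sizes.

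**Figure D5:**
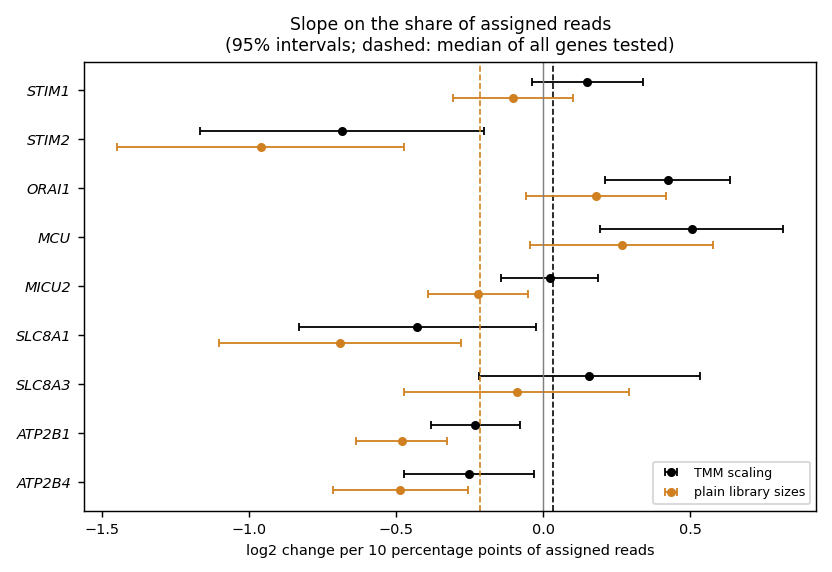
Slope of each gene in log2 units per 10 percentage points of assigned reads (horizontal axis) with 95% intervals, with TMM scaling (black) and plain library sizes (orange). Dashed lines are the medians of all genes tested, 0.03 with TMM and -0.22 with plain sizes. A change of scaling shifts all slopes by about the same amount, so each gene keeps nearly the same distance from the line of that scaling.

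Other genes moved with the same share, and their part in these slopes was not tested. Of 9 liver transcripts listed, 8 were tested and 7 called, all downward, with ALB at -0.57 ± 0.11. The summed liver level ran from 3364 to 22871 CPM in control, from 3594 to 31602 CPM in D5000 and from 3056 to 35862 CPM in D10000 pigs. Of 6 identifiers of immune cell markers tested, 2 of them for GZMA, 2 were called, PTPRC at -0.44 ± 0.07 and CD163 at -0.43 ± 0.08. The summed immune level ran from 52.9 to 196 CPM in control, from 57.0 to 381 CPM in D5000 and from 61.5 to 257 CPM in D10000 pigs. Upward slopes were called for 4 of 11 fast-twitch markers, for 4 of 7 slow-twitch markers and for 3 of 7 smooth muscle and pericyte markers tested. Of the 14 mitochondrial partners tested, 12 had upward and 2 downward slopes. Those called were 7, all upward, among them VDAC1 at 0.66 ± 0.09 and SMDT1 at 0.57 ± 0.14. Of the 5 STIM and ORAI partners tested 1 was called, ORAI3 at -0.36 ± 0.13, opposite in sign to ORAI1. Of the 6 export partners 4 were called, among them CALM3 at 0.59 ± 0.09 and NPTN, which binds and steadies the pumps, at 0.24 ± 0.07 upward, and CALM2 at -0.43 ± 0.08 downward. With plain library sizes the liver transcripts again had 7 called downward, while 2 fast-twitch markers, 2 slow-twitch markers, 0 smooth muscle and pericyte markers, 3 mitochondrial calcium partners and 1 of the plasma membrane calcium export partners were called upward. Of all genes tested 30.6% were called downward and 2.3% upward with plain sizes.

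Genes most like the members of this set were taken as the 3 with the highest Pearson r over the 25 libraries, on log2 CPM centred within diets, as a description with no test. MCU was nearest to PKIA (r = 0.86), BTBD1 (0.84) and TMEM126A (0.83), but without the 5 libraries that stand apart these were 0.51, 0.45 and 0.28. ORAI1 was nearest to UQCC1, PEA15 and RPS13, with r from 0.85 to 0.86, and these stayed between 0.82 and 0.85 without those libraries. STIM1 was nearest to TMEM11 (0.78), MYO18A (0.77) and CTDNEP1 (0.74), with 0.83, 0.81 and 0.81 without the 5 libraries. SLC8A3 was nearest to CLTC (0.85), ILRUN (0.82) and YBX3 (0.81), and ATP2B1 to TCEA3 (0.85), RBM26 (0.85) and NIPBL (0.83). The ATP2B1 values were 0.49, 0.56 and 0.58 without the 5 libraries. For MICU2 the nearest was TOM1L1 (0.81), for SLC8A1 LGALS3BP (0.76) and for ATP2B4 AGFG1 (0.76). These were 0.83 for MICU2, 0.63 for SLC8A1 and 0.44 for ATP2B4 without the 5 libraries, and 0.78, 0.86 and 0.85 for SLC8A3 with its 3 genes.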

How the data were processed

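The deposited files, 1 per pig, held raw counts of reads for each Ensembl gene identifier. Per the labels, RNA was extracted with a column kit and the QuantSeq FWD kit of Lexogen was used for the libraries. FastQC was named, without a version, per the submitters' processing notes. Aligner, counting program, build and annotation were all not given in the sources used here. From each file 5 summary lines were left out of library sizes and tests. Per the files, among them were reads outside genes (16.3% to 38.1%), reads with several positions (12.5% to 38.7%) and ambiguous reads (0.299% to 0.608%). These percentages are of the gene counts and these classes together, and the remaining summary lines did not enter them. The files held 25880 pig identifiers, that of D10000 replicate 27 lacked 1, and the 25879 in common were analysed. An Ensembl name table gave a symbol to 14856 of them. No sequence or coordinate was used.

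CPM was computed over pig gene rows. Genes were filtered with filterByExpr (minimum count 10, minimum total 15) of edgeR 4.0.16 in R 4.3.3, scaled by TMM and fitted with glmQLFit and glmQLFTest (robust) with diet as the term and all 25 libraries in 1 fit. Benjamini-Hochberg adjustment covered all genes tested, with a threshold of 0.05. Relations used log2 CPM with a prior count of 2 and 100000 permutations within diets. DESeq2 1.42.0, limma 3.58.1, RLE factors, plain library sizes, no filter, 2 covariates and fewer libraries were tried as alternatives. The code of the fit was checked on simulated data with known changes, which does not measure what size of change could be found in these data.

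The 9 genes, the partner lists and the marker lists were chosen with earlier results of these data known. By the rule for named genes, all 9 genes were given in every contrast, with the 3 most abundant genes of each partner list and the 3 genes most like each of the 9. A few genes that the rule names are not reported here. Other partners were named where they were called on the share of assigned reads or belong to the uniporter. Replicates were separate pigs, per the labels. MCUR1, VDAC2, YME1L1, BSG and FXYD1 had no matching identifier and are not reported.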

Additional observations from a re-analysis of the deposited data

Results flagged for a closer look

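In 8 of 27 groups (9 genes in 3 diets) 1 library lay apart from the rest of its diet by more than Dixon's 95% limit. Chance flags about 1 in 20 such groups if values are normally distributed, which was not checked for CPM, and the 9 genes share their libraries. The share of flagged groups over all genes was not computed. The count therefore does not tell whether these 9 genes differ from others. D5000 replicate 18 accounted for 4 of the 8. It had 20.6 CPM of STIM2, where the next highest D5000 library had 4.90 CPM, and 50.6 CPM of MICU2, where the next had 29.6 CPM. Its ATP2B1 level was 218 CPM beside a next value of 79.2 CPM, and its ATP2B4 level was 75.8 CPM beside 20.2 CPM. This library had 24.9% of its reads assigned to genes, the lowest share of the 25.

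D5000 replicate 11 had 11.4 CPM of SLC8A1, where the next highest D5000 library had 4.85 CPM. D10000 replicate 7 had 16.2 CPM of STIM2, beside a next value of 5.79 CPM, and D10000 replicate 2 had 38.4 CPM of ATP2B4, beside 18.8 CPM. The shares of assigned reads in these libraries were 43.8%, 38.2% and 28.4% in the same order. D10000 replicate 21 was low, with 8.68 CPM of ORAI1, where the next lowest D10000 library had 16.9 CPM, and its share of assigned reads was 47.6%.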

How the results depend on the processing

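No paired analysis was possible because animal numbers are not shared between diets and litters are not in the labels. The number of genes called stayed at 0 in the 3 diet contrasts and the joint test under every alternative and in every fit with 1 library left out. Plain library sizes, the omission of 5 libraries and the slopes on the share of assigned reads were added once the data had been seen, and the cause of each reversal below was not tested. No reversed diet value was called.

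With the share as a covariate, values turned to 0.10 for STIM2 in D10000 against D5000, and in D5000 against control to 0.075 for SLC8A3, -0.075 for ATP2B1 and -0.31 for ATP2B4. With the fibre index they turned in D10000 against D5000 to 0.000145 for MCU and -0.051 for SLC8A1, and for SLC8A3 to 0.35 in D5000 and 0.051 in D10000 against control. With limma voom, D5000 against control was 0.14 for SLC8A3 and -0.20 for ATP2B4. Without the 5 libraries, D5000 against control was 0.13 for MCU, -0.059 for SLC8A1, -0.087 for ATP2B1 and -0.53 for ATP2B4. D10000 against control was then 0.19 for MCU, -0.52 for SLC8A1 and 0.24 for SLC8A3, and D10000 against D5000 was 0.26 for STIM2, 0.061 for MCU, -0.46 for SLC8A1, 0.31 for SLC8A3 and 0.25 for ATP2B4. With plain sizes, D5000 against control was 0.066 for MICU2 and 0.048 for SLC8A3, D10000 against control 0.054 for SLC8A3, 0.071 for ATP2B1 and 0.10 for ATP2B4, and D10000 against D5000 0.045 for MCU and 0.0061 for SLC8A3. The median of all genes was then 0.24 in D10000 against control and 0.14 in D10000 against D5000.

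Slopes on the share turned to -0.10 for STIM1, -0.22 for MICU2 and -0.090 for SLC8A3 with plain sizes, to -0.000355 for MICU2 with RLE factors and to 0.20 for ATP2B4 without the 5 libraries. Of the 9 genes 4 had a called slope beside 28.8% of all genes, 5 with plain sizes beside 32.9%, and 1 without the 5 libraries beside 10.4%. The relation of ORAI1 to the share was 0.36 on plain CPM.

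Fits that left out 1 library gave these ranges where a sign turned. D5000 against control ran from -0.32 to 0.000936 for MCU, -0.037 to 0.49 for SLC8A1, -0.21 to 0.098 for SLC8A3, -0.085 to 0.18 for ATP2B1 and -0.44 to 0.16 for ATP2B4. D10000 against control ran from -0.053 to 0.12 for MICU2, -0.29 to 0.12 for SLC8A3 and -0.22 to 0.025 for ATP2B1. D10000 against D5000 ran from -0.035 to 0.22 for STIM1, -0.63 to 0.58 for STIM2, -0.26 to 0.091 for MCU, -0.27 to 0.42 for SLC8A1, -0.24 to 0.16 for SLC8A3, -0.34 to 4.9e-05 for ATP2B1 and -0.38 to 0.29 for ATP2B4. No sign turned in the remaining ranges. D5000 against control ran from -0.62 to -0.37 for STIM1, 0.33 to 1.75 for STIM2, -0.88 to -0.48 for ORAI1 and -0.21 to -0.023 for MICU2. D10000 against control ran from -0.50 to -0.31 for STIM1, 0.40 to 1.63 for STIM2, -0.44 to -0.10 for ORAI1, -0.41 to -0.063 for MCU, 0.070 to 0.57 for SLC8A1 and -0.32 to -0.062 for ATP2B4, and D10000 against D5000 from 0.25 to 0.55 for ORAI1 and 0.080 to 0.24 for MICU2.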
